A study of Mus musculus with 2 samples.

Results

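Genes that carry fatty acids from uptake to storage or oxidation were compared between adipose regulatory T cells (Tregs) with and without an intact Hif1a gene. A list of 51 genes of uptake, synthesis, storage, lipolysis and beta-oxidation was matched by symbol to the deposited count table, and 41 of them were among its 10219 genes. The other 10, Fabp4, Lpl, Vldlr, Pltp, Acacb, Scd1, Fads1, Fads2, Gpam and Mgll, have no value here and were not analysed; no gene of the table has fewer than 12 counts in the library from the knockout or 14 in that from the control, so the listed genes are those counted in both. By role, 6 of 10 uptake and activation genes, 6 of 10 synthesis genes, 10 of 12 storage and lipolysis genes and 19 of 19 beta-oxidation genes were listed. Both groups were Tregs sorted from adipose tissue of C57BL/6 mice 4 months old, and both carried Foxp3Cre, a Cre recombinase driven with the Treg factor Foxp3. The control group had the genotype Foxp3Cre and the knockout group Hif1afl/fl;Foxp3Cre, in which that Cre meets a floxed Hif1a gene. Each genotype had 1 library, so no value has an error between animals, no difference has a replicate check and no p-value is given. The labels give neither the number of mice behind a library nor the sort markers or the floxed exons.

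Long-chain fatty acids enter cells through membrane proteins such as CD36, are carried by fatty acid binding proteins and are activated to acyl-CoA by the long-chain acyl-CoA synthetases. Acyl-CoA is then built into glycerolipids, which end as triglyceride in lipid droplets, or is passed through the carnitine shuttle into mitochondria and shortened by beta-oxidation. Cells also make fatty acids from acetyl-CoA, by acetyl-CoA carboxylase and then fatty acid synthase. In fat, Tregs live among lipid-laden cells, and PPAR gamma and CD36 are known features of these Tregs in mice. HIF-1, whose oxygen-regulated subunit Hif1a encodes, is known in other cells to favour glycolysis and lipid storage over fatty acid oxidation.

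Levels are given as CPM, that is per 1000000 counts of TMM-scaled library size, and folds as the ratio of 2 such values with a 95% interval that covers counting error only. The listed genes held 13472317 counts in the control library and 11337415 in that from the knockout. Hif1a itself stood at 1273 CPM in the control library and at 780 CPM where the Cre met the floxed gene, and the counts cover the whole gene. All 9 Treg markers examined were listed, and Foxp3 was lower in the knockout library, at 46.4 CPM against 104 CPM. All 7 listed macrophage markers were higher in the knockout library, by 9.24-fold for Ctss to 172-fold for Lyz2, and their summed level was 3690 CPM against 246 CPM. The other 10 of the 17 macrophage markers, Adgre1 and Csf1r among them, were not analysed here. Markers of other cell types were also higher there: of the endothelial markers, 2 of 6 were listed, with Kdr 15.5-fold higher, at 43.1 CPM and 2.78 CPM, and Pecam1 1.42-fold higher; of the stromal markers 1 of 6, Dcn, 3.47-fold higher. The 5 listed dendritic cell markers of 7 summed to 1086 CPM and 292 CPM, with 3 past 2-fold higher and Xcr1 past 2-fold lower, and of 2 listed B cell markers of 5 Ighm was 2.27-fold higher and Cd79b had a log2 ratio of -0.31. The 10 T cell markers summed to 4371 CPM against 4054 CPM, and none of the 10 adipocyte markers, Adipoq among them, was listed. The lowest mean count in the table is 50.5. Aif1, Pf4, Lyz2 and Fcgr1, with 17, 32, 35 and 50 control counts, could thus be listed only if higher in the knockout library. The same holds for Kdr, with 37. It does not hold for the macrophage markers Ctss, Cd68 and Gpnmb, with 2659, 306 and 176 control counts.

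Among the 41 listed fatty acid genes, 10 were past the size rule of 2-fold, 4 towards the knockout and 6 towards the control library, and 31 differed by less. The higher genes were Cd36, Acsl1, Fabp5 and Elovl6, and the lower genes were Dgat2, Acadvl, Etfb, Acaca, Hadh and Fasn. Over the whole table, 10.9% of the genes were past 2-fold towards the knockout and 8.41% towards the control library, so the share of higher members, 9.76%, was near the background and that of lower members, 14.6%, was above it by a few genes. With a scaling on the median of the pan T cell markers, the background became 8.77% and 11.4%, and the members were 4 higher and 7 lower. The members' median log2 ratio of knockout over control was -0.17, with a binomial interval from the order of the members of -0.43 to 0.12, against 0.0054 for all genes. In total, 27 of the 41 genes had a log2 ratio below 0, or 65.9%, against 49.6% of all listed genes. The counting interval lay above no difference for 11 members, or 26.8%, below it for 19, or 46.3%, and included it for 11. Over the whole table these shares were 37.1% above and 37.0% below, so the 73.2% of members with an interval on either side was near the background of 74.1%. With the pan T cell scaling the members were 8 above and 26 below, beside 28.2% and 46.8% of the table. Their summed levels differed little, at 3097 CPM in the control library and 3146 CPM in the other, or 2872 CPM against 3095 CPM without Cd36. In a bulk library, fewer cells of a type and less RNA per cell cannot be told apart.

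**Figure D1:**
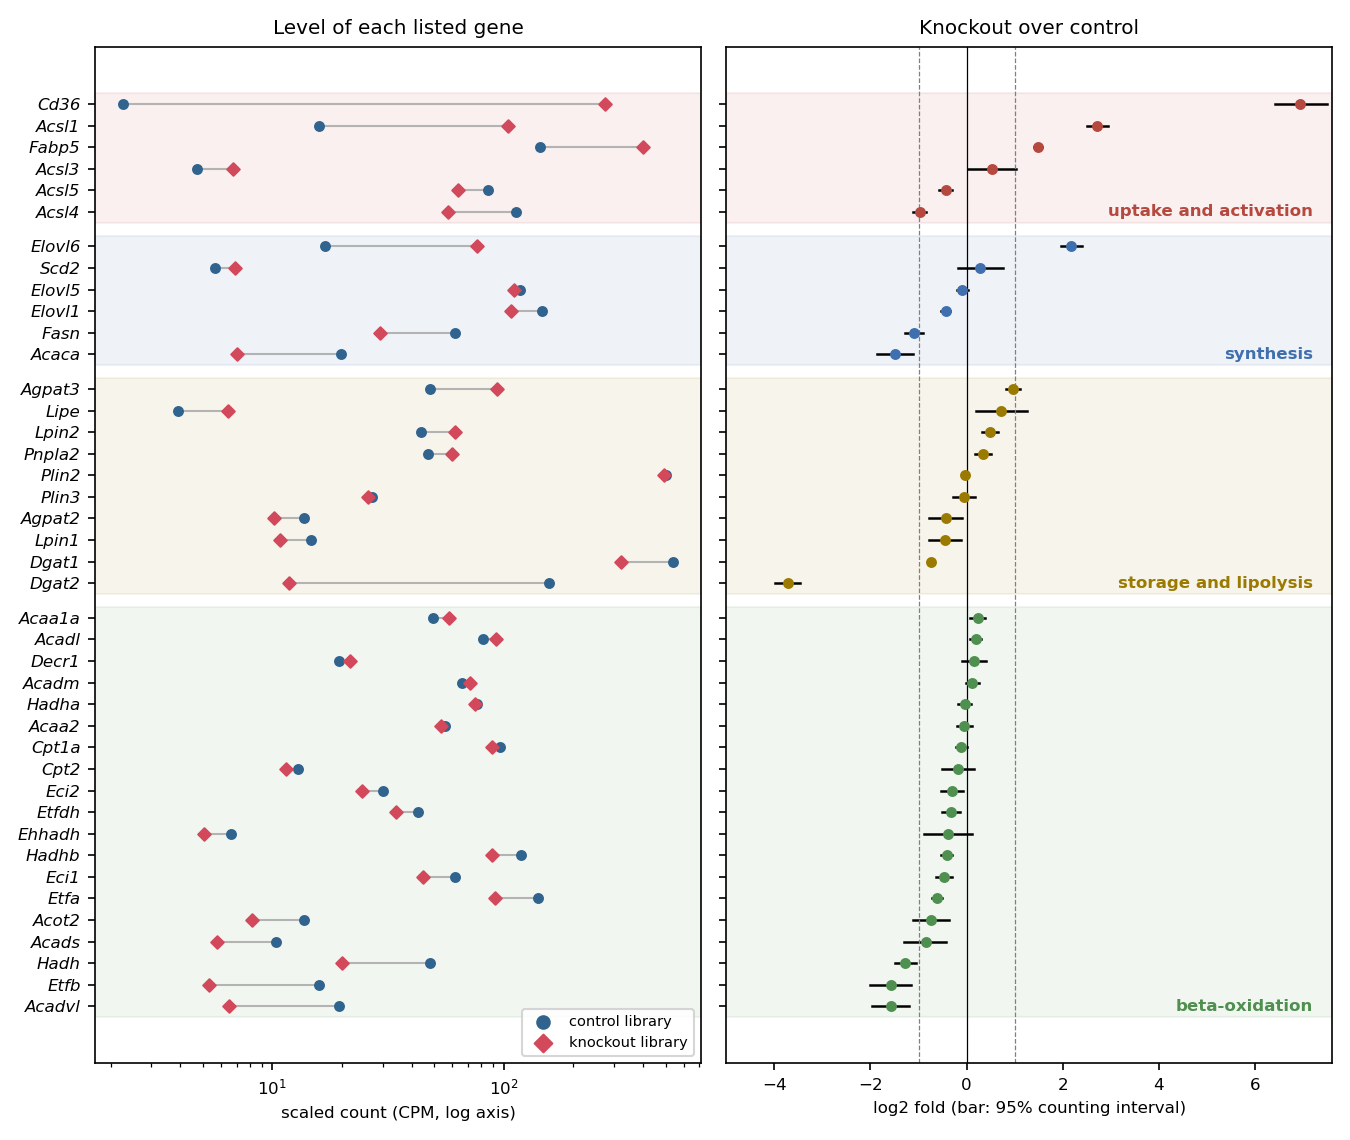
Left, the scaled count (CPM, log axis) of each listed fatty acid gene in the control library (blue circles) and the knockout library (red diamonds). Right, the log2 fold of knockout over control with its 95% counting interval and dashed lines at 2-fold; Cd36 and Dgat2 lie farthest from 0, and all 19 beta-oxidation genes lie at or below a log2 ratio of 0.23.

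Promoters are shown for 4 members that differ in direction: Cd36 and Elovl6, higher in the knockout library, Fasn, lower, and Plin2, at nearly equal levels. Each window runs 5′ to 3′ on the gene's strand from 250 bases before to 50 bases after the RefSeq start (GRCm38.p6), and capitals mark matches, on either strand, to ACGTG or GCGTG, the core letters of the hypoxia response element.
Cd36 (chr5:17835847-17836146, minus strand): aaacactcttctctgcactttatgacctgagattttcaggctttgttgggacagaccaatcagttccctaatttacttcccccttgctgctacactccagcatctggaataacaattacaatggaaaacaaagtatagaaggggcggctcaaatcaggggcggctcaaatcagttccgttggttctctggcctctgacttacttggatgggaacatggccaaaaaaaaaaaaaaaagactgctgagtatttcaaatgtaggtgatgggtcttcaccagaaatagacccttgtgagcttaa
Elovl6 (chr3:129532136-129532435, plus strand): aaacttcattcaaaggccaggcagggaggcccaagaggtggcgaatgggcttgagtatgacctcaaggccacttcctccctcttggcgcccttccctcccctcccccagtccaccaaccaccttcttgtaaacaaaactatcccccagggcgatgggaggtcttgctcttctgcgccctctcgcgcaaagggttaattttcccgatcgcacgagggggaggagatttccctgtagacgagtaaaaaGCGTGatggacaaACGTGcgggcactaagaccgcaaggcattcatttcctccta
Fasn (chr11:120824498-120824797, minus strand): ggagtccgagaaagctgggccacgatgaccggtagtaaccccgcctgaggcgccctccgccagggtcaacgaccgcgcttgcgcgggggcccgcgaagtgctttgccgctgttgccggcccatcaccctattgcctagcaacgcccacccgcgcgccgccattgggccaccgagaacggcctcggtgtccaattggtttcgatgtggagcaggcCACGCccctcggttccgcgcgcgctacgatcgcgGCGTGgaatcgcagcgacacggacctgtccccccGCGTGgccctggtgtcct
Plin2 (chr4:86670010-86670309, minus strand): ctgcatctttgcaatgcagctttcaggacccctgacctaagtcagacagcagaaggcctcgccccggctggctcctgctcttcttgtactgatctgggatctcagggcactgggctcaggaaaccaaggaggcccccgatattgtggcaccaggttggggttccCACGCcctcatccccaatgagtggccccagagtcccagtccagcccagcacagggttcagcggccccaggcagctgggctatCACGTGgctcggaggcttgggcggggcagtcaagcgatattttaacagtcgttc

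The Cd36 window holds neither 5-letter motif, the Fasn window holds GCGTG 3 times, the Elovl6 window holds each once, and the Plin2 window holds CACGTG, an E-box that contains ACGTG on both strands, besides GCGTG. RefSeq promoters were matched to 35 of the 41 listed members by symbol, with 40 windows in all. ACGTG was in 22.5% of the members' windows, against 26.3% of 9659 windows of listed genes and 19.6% of all 32851 windows. GCGTG was in 55% of the members' windows, against 51.8% and 32.4%. The sterol response element TCACNCCAC was in 2 of the 40 windows, those of Acsl1 and Ehhadh, against 1.15% of the windows of listed genes, and the PPAR response element, a direct repeat searched with free bases in each copy, was in 1, that of Elovl1, against 0.207%. For both hypoxia motifs the members' share was thus close to that of listed genes in general. A match is a run of letters and no evidence of binding.

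Of the 6 listed uptake and activation genes, 3 were past 2-fold higher in the knockout library and 0 past 2-fold lower. These shares, 50% and 0%, compare with 10.9% and 8.41% of all listed genes. The higher share counts Cd36, which could be listed only if higher in the knockout library, and so does the median below. The 6 genes had a median log2 ratio of 0.98, and they ranged from -0.97 for Acsl4 to 6.64 for Cd36. Summed, they stood at 906 CPM in the library from the knockout and 364 CPM in that from the control, or 631 CPM and 362 CPM without Cd36. Cd36 (ENSMUSG00000002944), which transports fatty acids and scavenges lipoproteins, had 30 counts and 2.26 CPM in the control library and 3154 counts and 274 CPM in the knockout library. It was 122-fold higher (85.0 to 181), the 4th largest log2 ratio of all listed genes. With control counts under the table's lowest mean count of 50.5, Cd36 could be listed only if higher in the knockout library, as could some macrophage markers. Fabp5 (ENSMUSG00000027533), a cytosolic fatty acid binding protein, had 399.9 CPM, compared with 143 CPM, and was 2.80-fold higher (2.65 to 2.96). Fabp5 shares at least 407 bases at 97.3% identity or more with the pseudogenes Gm14328 and Gm6166, so its count is uncertain. Both genes, and Acsl1, are also abundant in macrophages, whose 7 listed markers summed to 3690 CPM against 246 CPM. Of those markers only Lyz2, at 172-fold, lay above Cd36, and Lyz2 too could be listed only if higher in the knockout library. The markers free of that limit, Ctss, Cd68 and Gpnmb, were 9.24-fold, 20.0-fold and 39.0-fold higher, less than Cd36. Fabp5 and Acsl1 lay below all 7 markers. Kdr, Dcn and the summed dendritic cell markers were higher in the same direction, by 15.5-fold, 3.47-fold and 3.71-fold. Kdr, too, could be listed only if higher. Most of the dendritic sum was H2-Ab1 and H2-Aa, at 626 CPM and 419 CPM in the knockout library, and Xcr1 was 3.37-fold lower there. The part of any of these cell types in the result was not tested.

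The 4 acyl-CoA synthetases, which trap fatty acids inside the cell as acyl-CoA, moved in different directions. Acsl1, known in fat and heart for feeding storage and oxidation, had 104 CPM, compared with 15.9 CPM, and was 6.56-fold higher (5.67 to 7.63). Acsl4, which prefers arachidonic acid, had 57.4 CPM, compared with 113 CPM, so it was 1.97-fold lower (1.79 to 2.16), just short of 2-fold. Acsl5 had 63.2 CPM, compared with 85.2 CPM, so it was 1.35-fold lower (1.23 to 1.48), and Acsl3, a lipid droplet synthetase, had 6.79 CPM against 4.74 CPM with an interval of the fold of 1.01 to 2.03. The makeup of this step therefore differed between the libraries, whatever the scaling between them. Acsl1 made up 45.0% of the 4 genes' counts in the knockout library (Wilson interval 43.1% to 46.9%), compared with 7.26% in the control library (6.37% to 8.26%). Counted per kilobase of annotated exon, its shares were 28.3% and 3.69%. Acsl4 made up 24.8% in the knockout library, compared with 51.6% in the control. Per kilobase of annotated exon, the most abundant synthetase was Acsl4 in the control library, at 20.9 CPM per kilobase, and Acsl5 in the knockout library, at 13.0 CPM per kilobase.

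Acaca and Fasn, 2 genes of new fatty acid synthesis, were lower in the knockout library, while 1 elongase gene was higher. Acaca (ENSMUSG00000020532), acetyl-CoA carboxylase 1, which makes malonyl-CoA, had 7.05 CPM from 81 counts against 19.8 CPM from 263 counts and was 2.81-fold lower (2.18 to 3.65). Its transcript matches the pseudogene Gm5182 over 64.3% of its length at 99.2% identity. Fasn (ENSMUSG00000025153), fatty acid synthase, had 29.1 CPM, compared with 61.8 CPM, and was 2.13-fold lower (1.87 to 2.42), so that its counting interval reaches inside 2-fold. In contrast, Elovl6 (ENSMUSG00000041220), which lengthens palmitate to stearate, had 76.3 CPM, compared with 16.9 CPM, and was 4.51-fold higher (3.89 to 5.24). A pseudogene, Gm11295, matches 13.5% of its transcript, and the listed macrophage markers, too, were higher in that library; their part in its level was not tested.

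Elovl1 and Elovl5, elongases of very long saturated and of polyunsaturated chains, were the 2 most abundant synthesis genes per kilobase. Elovl1 had 108 CPM, compared with 146 CPM, so it was 1.36-fold lower (1.26 to 1.46). Elovl5 had 111 CPM against 118 CPM, and its interval, 0.874 to 1.01, included no difference. Elovl6 made up 25.9% of the 3 elongases' counts in the knockout library, compared with 6.03% in the control library, and the Wilson intervals of 24.4% to 27.4% and 5.31% to 6.84% do not overlap. Counted per kilobase, the shares of Elovl6 were 14.3% and 2.94%. Scd2, the desaturase that introduces the first double bond, was counted weakly, with 79 and 75 counts, and its interval of 0.877 to 1.69 included no difference. The median log2 ratio of the 6 listed synthesis genes was -0.26, with a binomial interval from -1.43 to 2.14 that spans all of them.

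**Figure D2:**
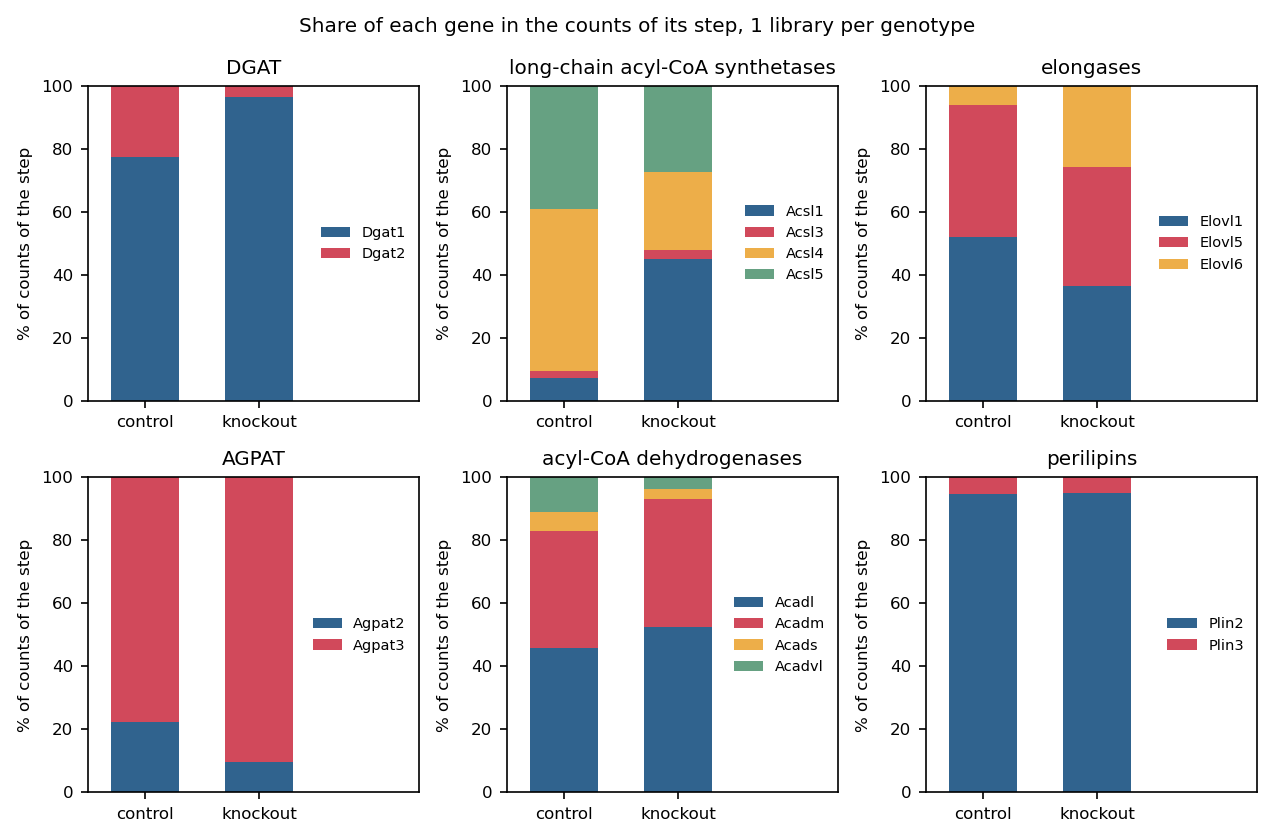
Each bar splits the counts of the listed members of 1 enzymatic step or family within a library, in percent, for the control and the knockout library. Agpat1, Agpat4 and Agpat5 are not in the AGPAT bars. Dgat2 takes 22.4% of the DGAT counts in the control and 3.55% in the knockout library, Acsl1 grows from 7.26% to 45.0%, and the perilipin split is nearly the same in both.

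In triglyceride storage, the difference lay in the final step. Dgat2 (ENSMUSG00000030747), a diacylglycerol acyltransferase that makes triglyceride, had 136 counts and 11.8 CPM in the knockout library against 2079 counts and 156 CPM in the control library. It was 13.2-fold lower (11.1 to 15.8), the 14th lowest log2 ratio of the whole table. Dgat1, the unrelated enzyme of the same reaction, had 322 CPM, compared with 541 CPM, so it was 1.68-fold lower (1.61 to 1.75). Dgat1 was the most abundant member per kilobase in the control library, at 177 CPM per kilobase, and held 77.6% of the counts of both enzymes there. In the knockout library its share was 96.5% (95.8% to 97.0%), and Dgat2's was 3.55% (3.01% to 4.18%) against 22.4% (21.6% to 23.3%). Both enzymes were thus lower in the knockout library, Dgat2 by far more. The 9 Treg markers moved the same way, with 6 of them past 2-fold lower and a summed level of 3316 CPM compared with 11537 CPM, while the T cell markers did not; the part of the Treg markers in this result was not tested.

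The listed members of the steps before it differed less. Agpat3, an acyltransferase that forms phosphatidic acid, had 93.6 CPM, compared with 47.9 CPM, so it was 1.95-fold higher (1.77 to 2.16), while Agpat2 had 10.2 CPM, compared with 13.8 CPM, so it was 1.35-fold lower (1.07 to 1.72). Agpat3 had a share of 90.2% of the counts of both in the knockout library, compared with 77.7% in the control library, or 71.5% and 48.8% per kilobase. This share covers that pair only. Of the same family, Agpat4 was 3.02-fold lower, Agpat5 1.88-fold lower (1.66 to 2.14) and Agpat1 1.11-fold lower (0.847 to 1.46). In the control library Agpat5 had 785 counts, against 637 for Agpat3. The phosphatidate phosphatases split in the same manner, with Lpin2 1.40-fold higher (1.26 to 1.57) and Lpin1 1.36-fold lower (1.08 to 1.72). Per kilobase, Agpat3 and Lpin2 had the higher level of their pairs in the knockout library. In the control library this held for Lpin2 but not for Agpat3, at 6.15 CPM per kilobase against 6.46 for Agpat2.

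The lipid droplet coat genes had similar levels in both libraries. Plin2, the coat protein that follows droplet content in many cells, had 504 CPM in the control library and 493 CPM in the other, with an interval of the fold of 0.943 to 1.01; with the pan T cell scaling it was 1.15-fold lower (1.11 to 1.19). It was the most abundant member per kilobase in the knockout library, at 140.3 CPM per kilobase, and stood at 144 in the control library. The pseudogene Gm12551 matches 13.7% of the Plin2 transcript. Plin3 had 26.0 CPM against 27.0 CPM. Of the lipases that release fatty acids from droplets, Pnpla2 (adipose triglyceride lipase) had 59.6 CPM, compared with 47.1 CPM, so it was 1.27-fold higher (1.13 to 1.41), and Lipe (hormone-sensitive lipase) had 6.44 CPM, compared with 3.91 CPM, so it was 1.65-fold higher (1.14 to 2.39), from 74 and 52 counts. An antisense gene, 4732471J01Rik, overlaps 15.6% of the exon bases of Lipe. The 10 listed storage and lipolysis genes had a median log2 ratio of -0.04 (-0.75 to 0.65), with 4 above 0, 6 below 0 and 1, Dgat2, past 2-fold. That is 10% lower and 0% higher, against 8.41% and 10.9% of all listed genes.

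Beta-oxidation genes were mostly a little lower in the knockout library. Of the 19 genes, 15 had a log2 ratio below 0, or 78.9%, against 49.6% of all listed genes. Past 2-fold, 3 were lower and 0 higher, or 15.8% and 0%, against 8.41% and 10.9%. Their median was -0.31, against 0.0054 for all listed genes. The order of the 19 genes gave a binomial interval of -0.71 to -0.04. It takes the genes as independent and holds no error between animals. At 1.5-fold, 6 of the 19 were lower and 0 higher, against 18.5% lower and 20.2% higher in the whole table. The counting interval lay below no difference for 10 genes, or 52.6%, above it for 2, or 10.5%, and included it for 7, where the table has 37.0% below and 37.1% above. Scaled on the T cell markers, it lay below for 15, or 78.9%, and above for 0, where the table has 46.8% below and 28.2% above. The summed level was 808 CPM against 965 CPM.

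The 2 genes of the carnitine shuttle, through which fatty acids enter mitochondria, had similar levels in both libraries. Cpt1a, the outer membrane palmitoyltransferase that controls the flow of fatty acids into oxidation, had 89.4 CPM against 96.4 CPM, and Cpt2, its inner membrane partner, 11.4 CPM against 12.9 CPM; both intervals, 0.854 to 1.01 and 0.70 to 1.12, included no difference. With the pan T cell scaling both genes lay below it, at 1.21-fold lower (1.12 to 1.32) and 1.27-fold lower (1.005 to 1.61).

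The acyl-CoA dehydrogenases, which open each round of oxidation, did not move together. Acadvl (ENSMUSG00000018574), for very long chains, had 6.53 CPM from 75 counts against 19.5 CPM from 259 counts, 2.98-fold lower (2.3 to 3.91). Dvl2 lies on the opposite strand over 42.9% of the exon bases of Acadvl, and its own level was 2.33-fold higher in the knockout library, at 10.9 CPM against 4.66 CPM; the strand setting of the counting is not given, so the Acadvl value is uncertain. Acads, for short chains, had 5.74 CPM, compared with 10.4 CPM, so it was 1.81-fold lower (1.34 to 2.46). Acadl and Acadm, for long and medium chains, had 92.4 CPM against 81.3 CPM and 71.4 CPM against 65.8 CPM, with folds of 1.14 (1.04 to 1.24) and 1.08 (0.984 to 1.19). Within the counts of the 4 dehydrogenases, Acadl had a share of 52.5% in the knockout library, compared with 45.9% in the control, and Acadvl a share of 3.71% against 11.0%.

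The 3 genes that pass on the electrons of these dehydrogenases were each lower in the knockout library. Etfa, the alpha subunit of the electron transfer flavoprotein and the most abundant beta-oxidation gene per kilobase, had 91.6 CPM, compared with 140 CPM, so it was 1.53-fold lower (1.42 to 1.66). A pseudogene, Gm15289, matches 17.5% of the Etfa transcript at 95.1% identity. Etfb (ENSMUSG00000004610), the beta subunit, had 5.31 CPM from 61 counts against 15.9 CPM from 211 counts, 2.99-fold lower (2.24 to 4.04). Gm45233 on the same strand covers 53.0% of the exon bases of Etfb, so reads may be split between them. Etfdh, the dehydrogenase that passes the electrons to ubiquinone, had 34.4 CPM, compared with 42.8 CPM, so it was 1.25-fold lower (1.09 to 1.42).

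In the later steps of the cycle, Hadh (ENSMUSG00000027984), the hydroxyacyl-CoA dehydrogenase for short and medium chains, had 19.9 CPM, compared with 48.1 CPM, and was 2.42-fold lower (2.07 to 2.82). No exon overlap or near-identical transcript was found for Hadh among the annotated genes. Hadha and Hadhb, the subunits of the trifunctional protein for long chains, had 74.8 CPM against 76.8 CPM and 88.9 CPM against 118 CPM; the interval of Hadha, 0.888 to 1.07, included no difference, and Hadhb, which has near-identical pseudogenes, was 1.33-fold lower (1.23 to 1.44). The mitochondrial thiolase gene Acaa2 had 53.8 CPM against 55.6 CPM. Of the auxiliary enzymes for unsaturated chains, Eci1 was 1.38-fold lower (1.24 to 1.55), Eci2 1.23-fold lower (1.05 to 1.44), and Decr1 had 21.7 CPM against 19.5 CPM. Acot2, a mitochondrial thioesterase that resembles Acot1 over 58.0% of its transcript, was 1.67-fold lower (1.30 to 2.17). The peroxisomal members Acaa1a and Ehhadh had log2 ratios of 0.23 and -0.36; Acaa1a shares 81.0% of its transcript with Acaa1b, and the interval of Ehhadh, from 58 and 88 counts, included no difference.

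**Figure D3:**
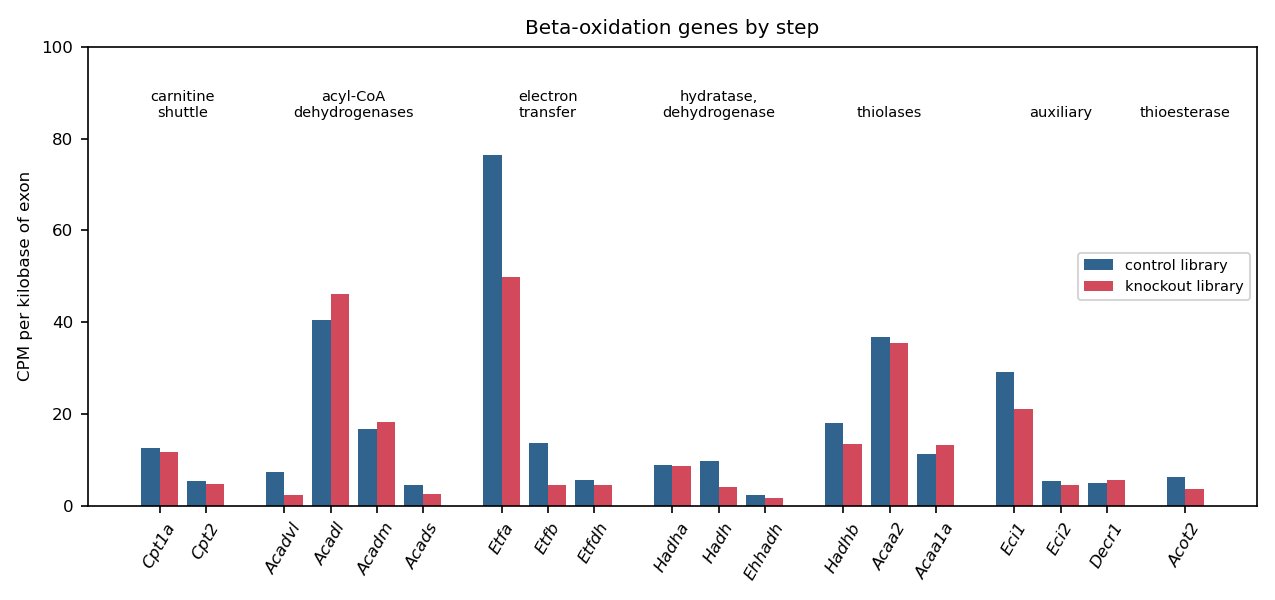
Level of each beta-oxidation gene, in CPM per kilobase of annotated exon, in the control (blue) and knockout (red) library, ordered by step. Etfa is the tallest pair at 76.5 and 49.9 CPM per kilobase. Of other abundant genes, Acadl, Acadm, Acaa2 and Cpt1a have bars of similar height in both libraries. Eci1, at 29.1 and 21.0, and Hadhb, at 17.9 and 13.5, are lower in the knockout library.

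Further genes of fatty acid metabolism, 46 in all with 41 listed, passed 2-fold in about the shares of the whole table. There were 3 towards the knockout and 4 towards the control library, or 7.32% and 9.76%, against 10.9% and 8.41% of all listed genes. Their median log2 ratio was -0.23 (-0.34 to 0.10). Among the higher genes were Slc27a1, a fatty acid transporter, 6.98-fold higher (4.81 to 10.4) from 199 and 33 counts, and Lipa, the lysosomal acid lipase, 3.66-fold higher (3.36 to 3.99). With 33 control counts, Slc27a1 could be listed only if higher in the knockout library. Hacd3, a dehydratase of the very long chain elongation cycle, had 141 CPM, compared with 936 CPM, and was 6.64-fold lower (6.31 to 7.0), and Mecr, of mitochondrial fatty acid synthesis, was 3.73-fold lower (2.85 to 4.96). The other lower genes, named after their values were seen, were Agpat4 (3.02-fold lower) and Hilpda (2.61-fold lower), the latter an inhibitor of the lipase encoded by Pnpla2. Macrophages express much Lipa, and the median log2 ratio of their listed markers was 5.13. That median includes Aif1, Pf4, Lyz2 and Fcgr1, which could be listed only if higher in the knockout library. The markers free of that limit, Ctss, Cd68 and Gpnmb, had log2 ratios of 3.21, 4.29 and 5.23. The part of macrophages in the level of Lipa was not tested.

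Regulators of these pathways mostly differed by less than 2-fold. Of 21 genes, 16 were listed, and the size rule was met by 1 higher and 2 lower genes. These shares, 6.25% and 12.5%, compare with 10.9% and 8.41% of all listed genes. The higher gene, Nr1h3, and Pparg, 1 of the 2 lower genes, had counts under the table's lowest mean count of 50.5 in 1 library. Each could thus be listed only in the direction it was called. The median was -0.06 (-0.52 to 0.51). Pparg, the nuclear receptor of adipose Tregs, which in fat cells controls fatty acid uptake and storage, stood at 4.18 CPM compared with 88.9 CPM, 21.3-fold lower (15.9 to 29.0), whereas Cd36, a known target of it in fat cells and macrophages, was higher. Insig1, a sterol-regulated brake on SREBP processing, was 2.46-fold lower (2.12 to 2.86), and Srebf1 and Srebf2, the SREBP genes that drive fatty acid and cholesterol synthesis, had log2 ratios of -0.52 and -0.65. Nr1h3, the liver X receptor alpha gene, which macrophages also express, was 5.74-fold higher (3.71 to 9.21) from 124 and 25 counts, and Ppard had a log2 ratio of 0.78. Of 19 listed cholesterol synthesis genes, given beside Fasn and Acaca as the other SREBP-controlled pathway, 11 were lower by 2-fold or more. This was 57.9%, against 8.41% of all listed genes, and their median was -1.20.

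**Figure D4:**
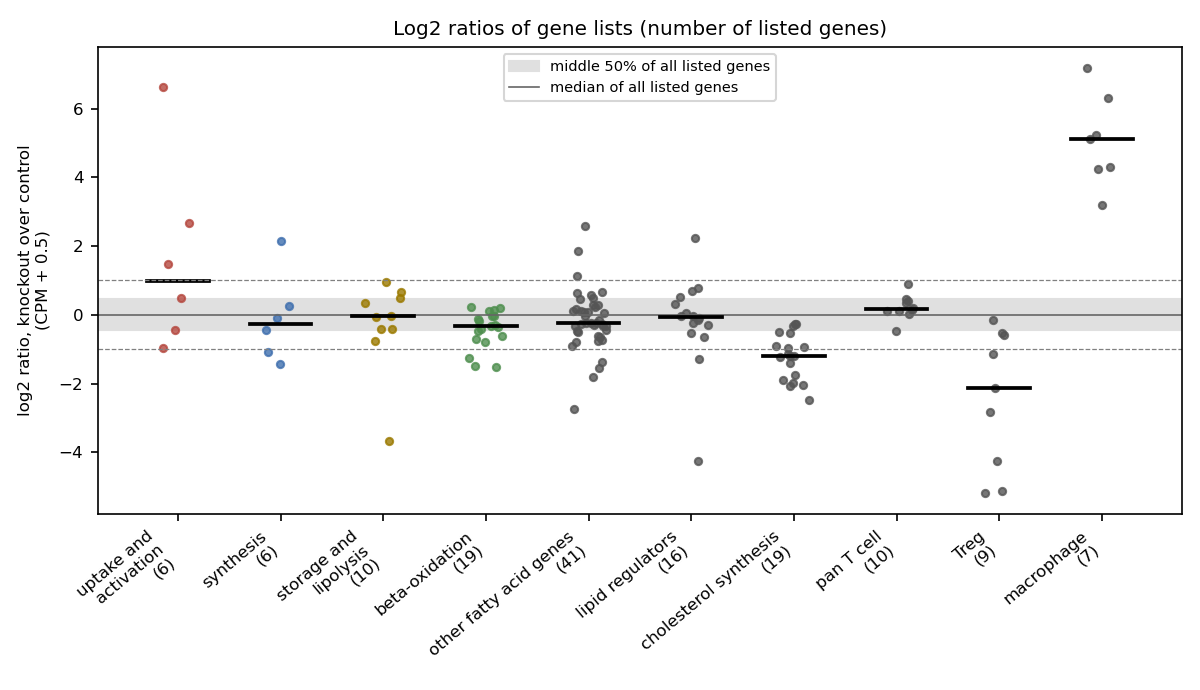
Log2 ratio of knockout over control (CPM + 0.5) for each listed gene of the 4 fatty acid subgroups, the further pathway lists and the T cell, Treg and macrophage markers; black bars are medians, the grey band is the middle 50% of all listed genes and dashed lines mark 2-fold. Beta-oxidation genes sit mostly within the band or just under it, and the macrophage markers lie above all fatty acid genes except Cd36.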

How the data were processed

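RNA sequencing gave 1 library per genotype. The authors deposited raw whole-number counts for each gene. The submitters' processing notes name HTSeq 0.6.1, TopHat2 2.0.12, Bowtie2 2.2.3, edgeR and a genome build, mm8, and give no annotation or strand setting. Beside them the authors deposited a log2 fold change, a log2 CPM, a p-value and an adjusted p-value, a likelihood ratio score, and, as scores, the mean and signed ratio of the counts; none of these is printed here. The genes, roles and lists were chosen with earlier results of these data known. Counts were scaled by TMM (edgeR 4.0.16, R 4.3.3). Log2 ratios use CPM + 0.5, and folds of single genes no pseudocount, with exact conditional binomial 95% intervals (scipy 1.17.1); shares have Wilson intervals. Intervals of folds and shares cover counting error only, and are too narrow where PCR copies of a molecule are counted as reads. Intervals of medians are binomial, from the order of the genes in a list. They take those genes as independent and hold no error between animals. No test is possible without replicates, and genes were counted at 2-fold. The intended protein comparison was not made. The value of 1 further gene past 2-fold is not reported here. Members at least 2-fold different and the 2 most abundant per subgroup were to be given in full. Exon lengths, overlaps and near-identical transcripts (95% identity over 150 bases or more) came from GENCODE M21, which matched 10204 of 10219 genes. The script was tested on simulated data. Alternatives were other scalings (total count, DESeq2 1.42.0 size factors, T cell markers, no rRNA genes), pseudocounts, a 5 CPM filter, and 1.5-fold and 4-fold rules.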

Additional observations from a re-analysis of the deposited data

How the results depend on the processing

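The count of 6 lower members became 11 at 1.5-fold and 1 at 4-fold, while the 4 higher members became 6 and 3. In the whole table, with 1115 higher genes, 2067 passed 1.5-fold and 350 passed 4-fold; of lower genes, 859 at 2-fold, these were 1886 and 161. Scaling on pan T cell markers lowered each log2 ratio by about 0.17 and so moved the split of the whole table from 56.5% higher to 43.6% higher, with 896 higher and 1161 lower genes; it took Acsl4 past 2-fold lower, put the intervals of Plin2, Elovl5, Cpt1a, Cpt2, Hadha, Acaa2 and Ehhadh below no difference, let those of Acsl3, Acadl and Acaa1a include it, turned Acadm and Decr1 below 0 and moved the median of the further fatty acid genes from -0.23 to -0.40. The median of the beta-oxidation genes ranged from -0.48 with that scaling to -0.25 with a pseudocount of 5 CPM, which also took Fasn inside 2-fold. With total-count scaling Plin2 changed sign. The same 4 members were at least 2-fold higher under all 7 scalings, pseudocounts and filters, and 5 of the 6 lower ones, all but Fasn, were lower under each. When the whole counting interval had to lie past 2-fold, 4 higher and 5 lower members were left. Of 287 alternative values of single members, 261 stayed within the counting interval and 0 of the called ones changed sign. Counts per kilobase in place of counts lowered the share of Acsl1 in the knockout library to 28.3% and of Elovl6 to 14.3%. No paired analysis was possible because each genotype has 1 library. Genes under about 50 counts cannot be judged, since the lowest mean count in the table is 50.5. A gene with fewer counts than that in 1 library is listed only if it has more in the other. Cd36, Kdr, Nr1h3 and Slc27a1 have so few in the control library, and Pparg in the knockout library.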
